A study of Mus musculus with 31 samples.

Results

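Mouse cardiac fibroblasts that had been grown in a 3D and then a 2D arrangement were either collected there (3D-2D, 2 RNA libraries) or returned to 3D before collection (3D-2D-3D, 3 libraries). The comparison of these groups, called re-entry here, asks how the transcriptome changes when spread cells go back to 3D. Its 5 libraries were taken by their labels from the 29 RNA libraries of the series, which has 31 samples. All cells came from the hearts of C57Bl/6 mice aged 8 to 12 weeks, were seeded freshly isolated, and carried no stated transgene, deletion or drug. The other groups used as references have 3 libraries each: cells in 2D, cells in 3D, and cells kept in 2D after the 3D and 2D steps (3D-2D-2D). Each name was taken to list the arrangements in order. The sources used here do not give how long cells spent in each arrangement, what held them in 3D, or how many mice or cultures went into a library. Whether libraries of 1 group are separate cultures is not labelled either. The p-values reflect scatter between libraries within groups, estimated over all 29 RNA libraries together, and part of it may be technical.

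The 5 libraries held 20923257 to 29909400 reads counted to genes. Libraries 1 and 2 of 3D-2D-3D lay closer to each other than any other pair of the groups used, with an SD of 0.2323 for their gene-wise difference in log2 normalised counts (CPM, reads scaled to a common library total), against 0.5404 and 0.5522 to library 3 and 0.3409 between the 3D-2D libraries. Their counts still differed by more than sampling noise, with a chi-square of 2.327 per gene. That value was 78.54 and 70.94 to library 3 and 24.3 between the 3D-2D libraries. Such an excess cannot tell separate cultures from 1 culture prepared more than once. Libraries 1 and 2 were kept separate, and a fit with both summed is given with the processing. In library 3 of 3D-2D-3D both Xist and Y-linked genes had reads, whereas the other 4 libraries held Xist and at most 1 Y-linked read. Library 3 of 2D and of 3D, used as references below, also held both (2488 and 2498 Y-linked reads against 2620 in 3D-2D-3D), and 3D-2D has no such library. With libraries 1 and 2 alone, the shifts of 4 genes or more in the gene groups below were from 18 to 24 rises for matrix glycoproteins, 14 to 20 for inflammatory genes, 7 to 11 for BMP and Wnt genes and 15 to 11 for interferon genes. Fibroblast markers summed over 12 genes to 20542 to 20644 CPM in 3D-2D and 18998 to 26188 CPM in 3D-2D-3D. Col1a1, Col1a2 and Vim were the highest of them in 3D-2D, whereas Lum stood at 1.29 to 2.91 CPM and Tcf21 at 18.5 to 23.0 CPM there. Of 9 lymphocyte markers, none reached the count needed for testing.

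Fibroblasts on a flat surface spread, assemble actin stress fibres and pull on their adhesions. This mechanical state is read by 2 transcription systems. Serum response factor (SRF) works with myocardin-related factors that are set free when actin polymerises, and YAP enters the nucleus of spread cells and acts through TEAD proteins. In the heart the contractile form of the fibroblast, the myofibroblast, lays down scar after injury. How far that state can be reversed is a standing question of the field.

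Of 14036 genes tested, 3398 were higher and 3504 lower in 3D-2D-3D than in 3D-2D at an adjusted p under 0.05 (edgeR's quasi-likelihood test with Benjamini-Hochberg adjustment over all genes tested). That is 24.2% higher and 25.0% lower, or 49.2% called in all, and every count of list members below is to be read against these shares. A value with ± is a log2 change with its SE, for 3D-2D-3D over 3D-2D unless another comparison is named, and rose, fell and called refer to this threshold. At least 2-fold changes made up 3270 of the called genes, 23.3% of those tested. The libraries of both groups did not overlap for 76.1% of genes, and the median change over all genes was 0.01 on the log2 scale. With library totals in place of the trimmed mean scaling used here, the split was 3789 higher and 2987 lower, and the median over all genes rose to 0.09.

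Among called, named genes whose log2 CPM averaged 3 or more over the 5 libraries and whose groups did not overlap, the 3 largest falls were in the contractile genes Tagln, Acta2 and Myl9. Of 30 contractile and stress-fibre genes, 26 fell and none rose, with a median log2 change of -2.07; the 4 others were Myh10, Mylk, Des and Tes. Acta2 (smooth muscle actin, chr19:34240336-34255585 on mm10) stood at 2476 and 2887 CPM in the 3D-2D libraries and at 19.1, 19.0 and 17.8 CPM in the 3D-2D-3D libraries. That the groups did not overlap was a condition of the ranking above. The re-entered libraries were nearly equal, with a log2 change of -7.17 ± 0.52 (SE, adjusted p = 6.97e-10). Tagln, the actin-binding protein transgelin (chr9:45929628-45936058), went from 1935 and 3035 CPM to 11.3, 12.7 and 11.5 CPM, a change of -7.72 ± 0.42 (adjusted p = 1.0e-11). Myl9, the regulatory light chain of non-muscle and smooth muscle myosin, had 237 and 193 CPM before and 2.76, 2.91 and 1.52 CPM after re-entry (-6.50 ± 0.46). Calponin 1 (Cnn1) was at 15.9 and 15.1 CPM in 3D-2D and at 0.0341, 0.0454 and 0.0645 CPM in 3D-2D-3D, which is 1 or 2 reads a library, and no fold is given for it. Summed over the 30 genes, the level went from 36621 to 42009 CPM to 9533 to 10345 CPM. In bulk RNA, fewer cells of a type and less RNA per cell cannot be told apart.

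**Figure D1:**
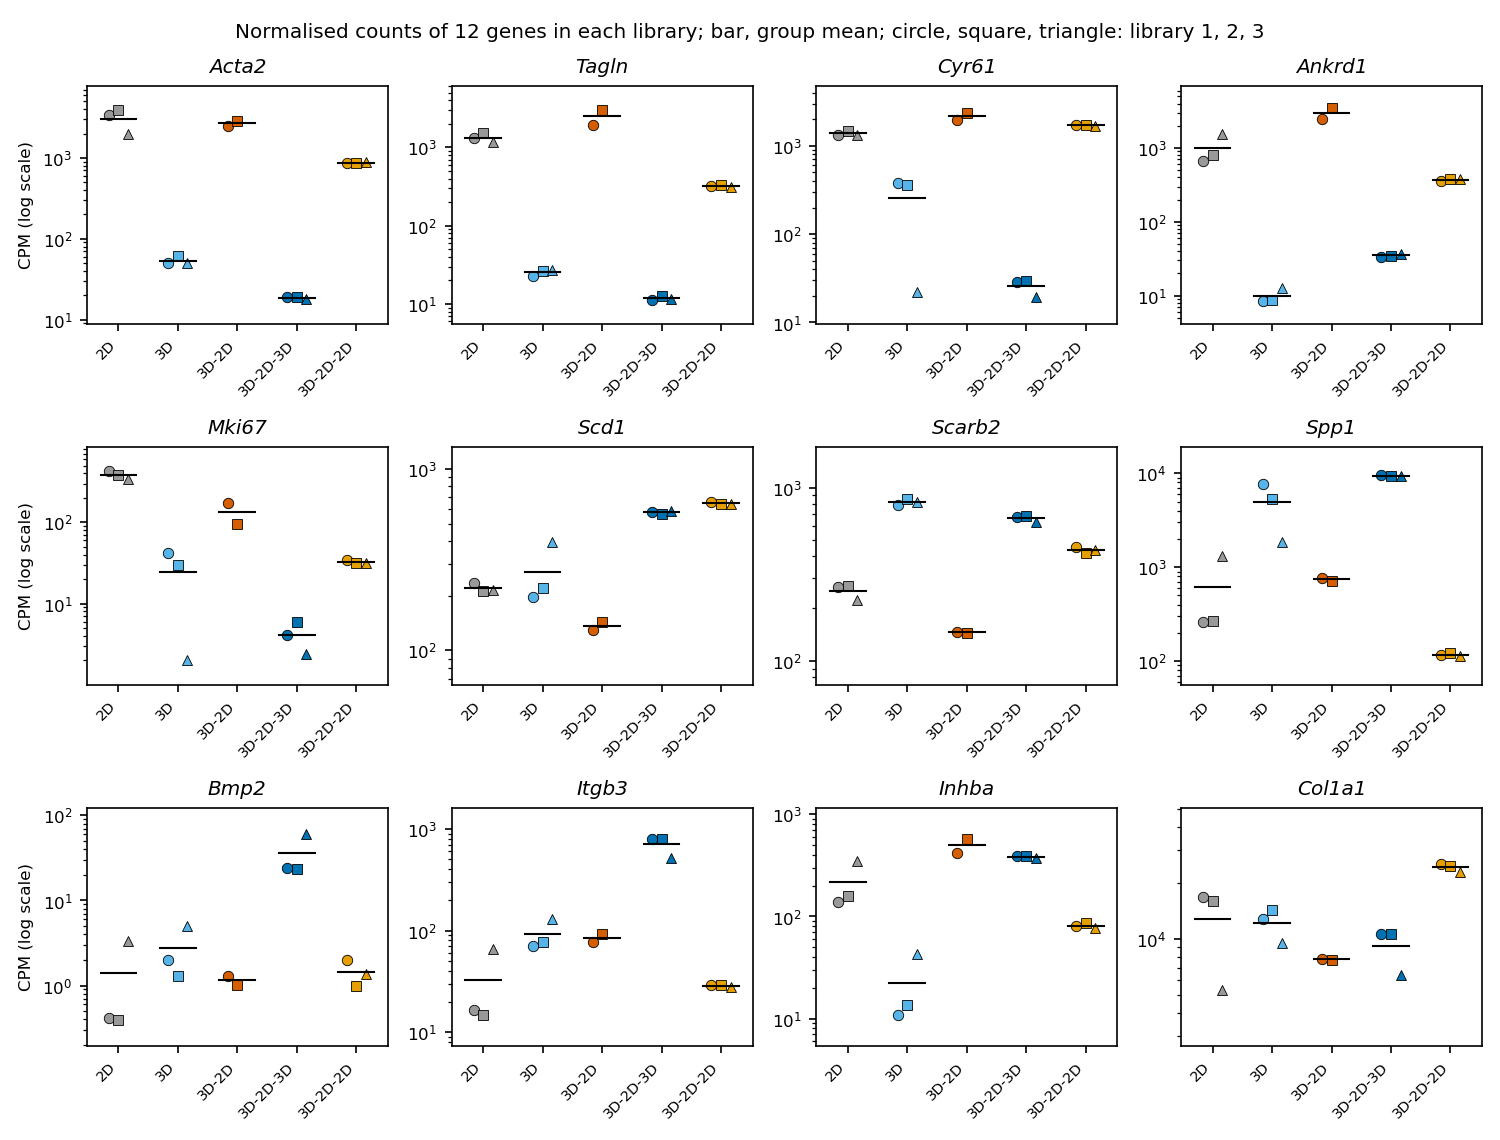
Normalised counts (CPM, log axis) of 12 genes in each library of 5 groups; the bar is the group mean, and circle, square and triangle are libraries 1, 2 and 3. Acta2, Tagln, Cyr61, Ankrd1 and Mki67 are low in all 3 libraries of 3D-2D-3D and high in both of 3D-2D, Spp1, Bmp2, Itgb3, Scarb2 and Scd1 are the reverse, and Inhba and Col1a1 sit at like levels in both groups.

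Among 15 tested genes of the SRF pathway and its actin-linked targets, 13 fell and none rose (median -1.69). Srf itself went from 172 and 199 CPM to 39.9, 38.7 and 43.3 CPM (-2.19 ± 0.20, adjusted p = 1.34e-08). The LIM-domain genes Fhl1 and Fhl2 fell, with changes of -4.17 ± 0.33 and -3.66 ± 0.26. Tgfb1i1, the adhesion-linked LIM protein Hic-5, changed by -2.31 ± 0.17.

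SRF binds the CArG box. The promoters of Myl9 and Fhl2 are printed because both genes fell and their 250 bases before the start hold that motif, shown in capitals (RefSeq, build GRCm38.p6, which has the coordinates of mm10). Myl9 is chr2:156775214-156775463, + strand, with the match from 161 to 152 bases before the start. Fhl2 is chr1:43163962-43164211, - strand, the window of 1 of its 2 starts, with the match from 31 to 22 bases before it.
Myl9: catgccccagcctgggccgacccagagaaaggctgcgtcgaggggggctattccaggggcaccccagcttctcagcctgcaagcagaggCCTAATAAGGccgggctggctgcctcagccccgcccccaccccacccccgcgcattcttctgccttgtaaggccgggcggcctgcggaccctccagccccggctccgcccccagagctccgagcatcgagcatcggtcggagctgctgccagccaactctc
Fhl2: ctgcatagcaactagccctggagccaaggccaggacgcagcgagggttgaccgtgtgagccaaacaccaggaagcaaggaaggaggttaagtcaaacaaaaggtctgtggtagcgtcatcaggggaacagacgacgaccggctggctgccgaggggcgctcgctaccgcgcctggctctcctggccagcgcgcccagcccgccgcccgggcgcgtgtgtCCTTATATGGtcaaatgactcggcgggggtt
A CArG box, searched on both strands, was in 6 of the 14 SRF list genes with a promoter entry (42.9%) and in 5 of 26 contractile genes (19.2%). Of all 32851 promoter windows of this length 1.47% held it, and of all 27025 genes 1.62% had it in at least 1 window. The lists were drawn from known SRF targets, so these shares describe the lists and not the response.

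Target genes of YAP and TEAD fell next. Of 23 tested, 13 fell and 2 rose, with a median of -1.32. Cyr61, a secreted matricellular protein (chr3:145646971-145649985), had 1979 and 2371 CPM in 3D-2D and 28.4, 29.8 and 19.4 CPM in 3D-2D-3D (-6.39 ± 0.68, adjusted p = 1.48e-07). Ankrd1, a stretch-responsive ankyrin repeat protein, went from 2489 and 3460.0 CPM to 33.6, 34.7 and 36.5 CPM (-6.41 ± 0.57). Amotl2, which binds and restrains YAP, went from 557 and 605 CPM to 17.3, 16.3 and 18.5 CPM (-5.06 ± 0.19). In all of these genes the lowest 3D-2D library was above the highest 3D-2D-3D library, which was a condition for a place among the largest falls. Ctgf, the relative of Cyr61 most used as a marker of fibrosis, kept a higher floor, at 5318 and 7525 CPM before and 353, 354 and 605 CPM after (-3.87 ± 0.34). One of the genes that rose was Nt5e, the ectoenzyme CD73 that makes extracellular adenosine, at 8.06 and 11.0 CPM in 3D-2D and 196, 200.1 and 80.4 CPM in 3D-2D-3D (4.06 ± 0.78). Its lowest value after re-entry was in library 3 and was still above both 3D-2D libraries.

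The promoters of Cyr61, Ankrd1 and Amotl2 are printed because these were the 3 largest falls among the YAP targets and each window holds the core of the TEAD motif, GGAATG, in capitals on either strand. The Cyr61 window is chr3:145649986-145650235, - strand; the match lies 103 to 98 bases before the start. Ankrd1, at chr19:36119845-36120094, - strand, has matches at 210 to 205 and at 123 to 118 bases. For Amotl2, at chr9:102717554-102717803, + strand, the match is at 65 to 60 bases.
Cyr61: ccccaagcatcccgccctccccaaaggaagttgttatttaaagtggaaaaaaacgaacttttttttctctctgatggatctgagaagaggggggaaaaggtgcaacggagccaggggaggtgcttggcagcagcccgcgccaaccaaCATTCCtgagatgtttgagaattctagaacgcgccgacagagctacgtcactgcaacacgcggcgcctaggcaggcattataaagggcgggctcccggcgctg
Ankrd1: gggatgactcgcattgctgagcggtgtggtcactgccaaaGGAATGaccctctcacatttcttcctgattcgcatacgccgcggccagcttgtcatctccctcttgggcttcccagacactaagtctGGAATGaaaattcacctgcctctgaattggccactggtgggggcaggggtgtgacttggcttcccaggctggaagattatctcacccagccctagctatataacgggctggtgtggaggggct
Amotl2: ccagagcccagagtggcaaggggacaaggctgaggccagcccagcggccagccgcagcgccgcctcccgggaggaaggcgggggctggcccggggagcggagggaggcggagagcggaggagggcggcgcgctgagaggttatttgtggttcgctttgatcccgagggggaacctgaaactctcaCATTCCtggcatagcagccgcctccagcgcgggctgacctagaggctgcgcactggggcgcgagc
GGAATG was in 7 of the 17 YAP target genes with a promoter entry (41.2%), against 14.4% of all genes and 12.6% of all windows. The list holds known YAP targets, so this share too describes the list and not the response. A short motif of this kind occurs often, and a match is a run of letters and not a bound site.

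Adhesion genes moved both ways, and more of them fell. Of 32 tested, 18 fell and 7 rose (median -0.74). Integrin β3 (Itgb3), a partner of αv that binds RGD motifs in fibronectin, vitronectin and osteopontin, rose from 76.8 and 92.5 CPM to 788, 803 and 518 CPM (3.05 ± 0.52, adjusted p = 5.26e-05). Itga2, part of a collagen receptor, rose from 2.05 and 3.16 CPM to 23.5, 23.2 and 8.71 CPM (2.82 ± 0.55). Itgb8, whose αv pair activates latent TGF-β, changed by 3.10 ± 0.47. The caveola genes, whose membrane pits flatten under tension, moved down: 6 of 9 tested fell and none rose (median -1.13). Cav1, the coat protein, changed by -3.35 ± 0.60. The cavins Sdpr and Ptrf, which shape the pit, changed by -5.57 ± 0.51 and -1.74 ± 0.23, and without library 3 of 3D-2D-3D the Sdpr change was -6.37.

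Collagen chains rose more often than they fell, and the main fibrillar chains were not called. Of 24 chains tested, 8 rose and 3 fell, with a median of 0.44, while over all genes 24.2% rose and 25.0% fell. Col1a1, the main chain of scar collagen, was at 7814 and 7729 CPM in 3D-2D and 10607, 10573 and 6424 CPM in 3D-2D-3D, so the groups overlap (0.24 ± 0.37, adjusted p = 0.606). Col1a2 and Col3a1 were not called either (0.44 ± 0.29 and 0.91 ± 0.70). The 4 largest called changes were rises in basement-membrane chains: Col15a1 (2.51 ± 0.32), Col18a1 (2.41 ± 0.38), Col4a3 (2.34 ± 0.58) and Col4a4 (2.0 ± 0.71). Col15a1, which joins the basement membrane to the collagen around it, went from 154 and 102 CPM to 597, 590.1 and 1001 CPM. Library 3 of 3D-2D-3D was the highest for the other 3; without it Col18a1 changed by 1.55 and Col4a3 by 1.44. Col4a4 lost its call without that library (0.97) and without library 1 (1.58) or 2 (2.52) of 3D-2D.

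The enzymes that modify and crosslink collagen fell more often than they rose, 9 against 2 of 24 tested, with a median of -0.43. Lox and Loxl4, lysyl oxidases that crosslink collagen and elastin, changed by -2.51 ± 0.48 and -2.08 ± 0.19. P4ha3, a prolyl hydroxylase subunit, changed by -1.75 ± 0.18. Adamts14, a procollagen N-proteinase, changed by -2.03 ± 0.27.

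Among 41 glycoprotein and proteoglycan genes of the matrix, 18 rose and 5 fell (median 1.10). Spp1, the secreted RGD protein osteopontin (chr5:104435111-104441053), went from 775 and 708 CPM to 9542, 9263 and 9399 CPM (3.66 ± 1.0, adjusted p = 0.00432). All 3 re-entered libraries were nearly equal and lay above both 3D-2D libraries. Tgfbi, a TGF-β-induced adhesion protein, rose from 9.27 and 7.33 CPM to 166, 164 and 212 CPM (4.44 ± 0.32). Npnt, an integrin ligand of basement membranes, had 352 and 670.3 CPM before and 11.1, 11.4 and 4.03 CPM after (-5.86 ± 0.45). Several classical scar genes missed the threshold: Fn1 (0.50 ± 0.22, adjusted p = 0.0642), Postn (0.44 ± 0.32) and Tnc (-0.45 ± 0.39). Tnc had 1834 and 2475 CPM in 3D-2D and 2164, 2157 and 427 CPM in 3D-2D-3D, so that library 3 alone lay below. Lum, a small collagen-binding proteoglycan, was called at 3.97 ± 1.42, but the call was lost without library 1 of 3D-2D (3.46), library 2 of 3D-2D (4.64) or library 2 of 3D-2D-3D (3.57). Cemip, a hyaluronan-degrading protein, fell from 664 and 912 CPM to 19.2, 19.5 and 21.3 CPM (-5.30 ± 0.32).

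Matrix proteases rose in 17 of 34 tested and fell in 6 (median 0.69). Mmp2, the gelatinase A that fibroblasts make in quantity, went from 262 and 248 CPM to 1902, 1894 and 1400.3 CPM (2.76 ± 0.29, adjusted p = 9.14e-08). Adamts4, which cleaves proteoglycans, changed by 3.97 ± 0.48. The calls of Mmp3 (3.18 ± 1.17) and Mmp9 (3.50 ± 0.92) each rested on single libraries. Mmp3 lost its call without library 1 (2.74) or 2 (3.77) of 3D-2D and without library 1 (2.98) or 2 (2.99) of 3D-2D-3D, and Mmp9 without library 1 of 3D-2D (3.17). Among 12 inhibitors 3 rose and 2 fell. Serpine2, protease nexin 1, rose (2.82 ± 0.25). Timp3 fell (-1.51 ± 0.39), and Timp1 was not called (-0.40 ± 0.44). Serping1, the C1 inhibitor, was called at 2.32 ± 0.66 and lost the call without library 1 of 3D-2D (1.88).

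Cell cycle genes were low after re-entry in nearly every member tested. All 30 mitosis genes fell, with a median of -4.19, and 29 of 30 replication genes fell, with a median of -2.19. The summed level of the mitosis list was 852 to 1375 CPM in 3D-2D and 64.8 to 86.3 CPM in 3D-2D-3D. Mki67, the proliferation antigen Ki-67 (chr7:135689784-135716450), had 173 and 95.7 CPM and then 4.06, 5.86 and 2.42 CPM (-5.04 ± 0.83, adjusted p = 3.63e-05). The chromokinesin Kif4, the checkpoint kinase Bub1 and the cytokinesis scaffold Anln changed by -5.02 ± 0.60, -4.92 ± 0.63 and -4.89 ± 0.45. In the replication list the largest falls were those of the licensing factor Cdc6 (-4.95 ± 0.63), the ribonucleotide reductase subunit Rrm2 (-4.77 ± 0.62), cyclin E2, Ccne2 (-4.76 ± 0.67) and the primase subunit Prim1 (-4.64 ± 0.51). Of 20 CDK inhibitors, D cyclins and p53 targets, 6 rose and 5 fell. Gadd45a, a growth-arrest gene, rose from 11.0 and 10.2 CPM to 123, 123 and 140.4 CPM (3.60 ± 0.22), and Ccnd2, cyclin D2, fell (-1.71 ± 0.30).

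The Mki67 promoter is printed because late cell cycle genes are known for the CHR element, TTTGAA, and its window (chr7:135716380-135716629, - strand) holds 2 matches, at 116 to 111 and at 98 to 93 bases before the start.
Mki67: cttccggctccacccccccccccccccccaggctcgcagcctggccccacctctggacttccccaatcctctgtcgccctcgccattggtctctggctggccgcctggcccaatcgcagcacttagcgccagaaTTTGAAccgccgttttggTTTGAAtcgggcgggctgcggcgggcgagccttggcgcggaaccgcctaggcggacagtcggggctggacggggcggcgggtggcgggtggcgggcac
TTTGAA was in 9 of 24 mitosis genes with a promoter entry (37.5%) and in 3 of 24 replication genes (12.5%), against 18.3% of all genes and 16% of all windows. Here as well the shares describe the lists and not the response.

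**Figure D2:**
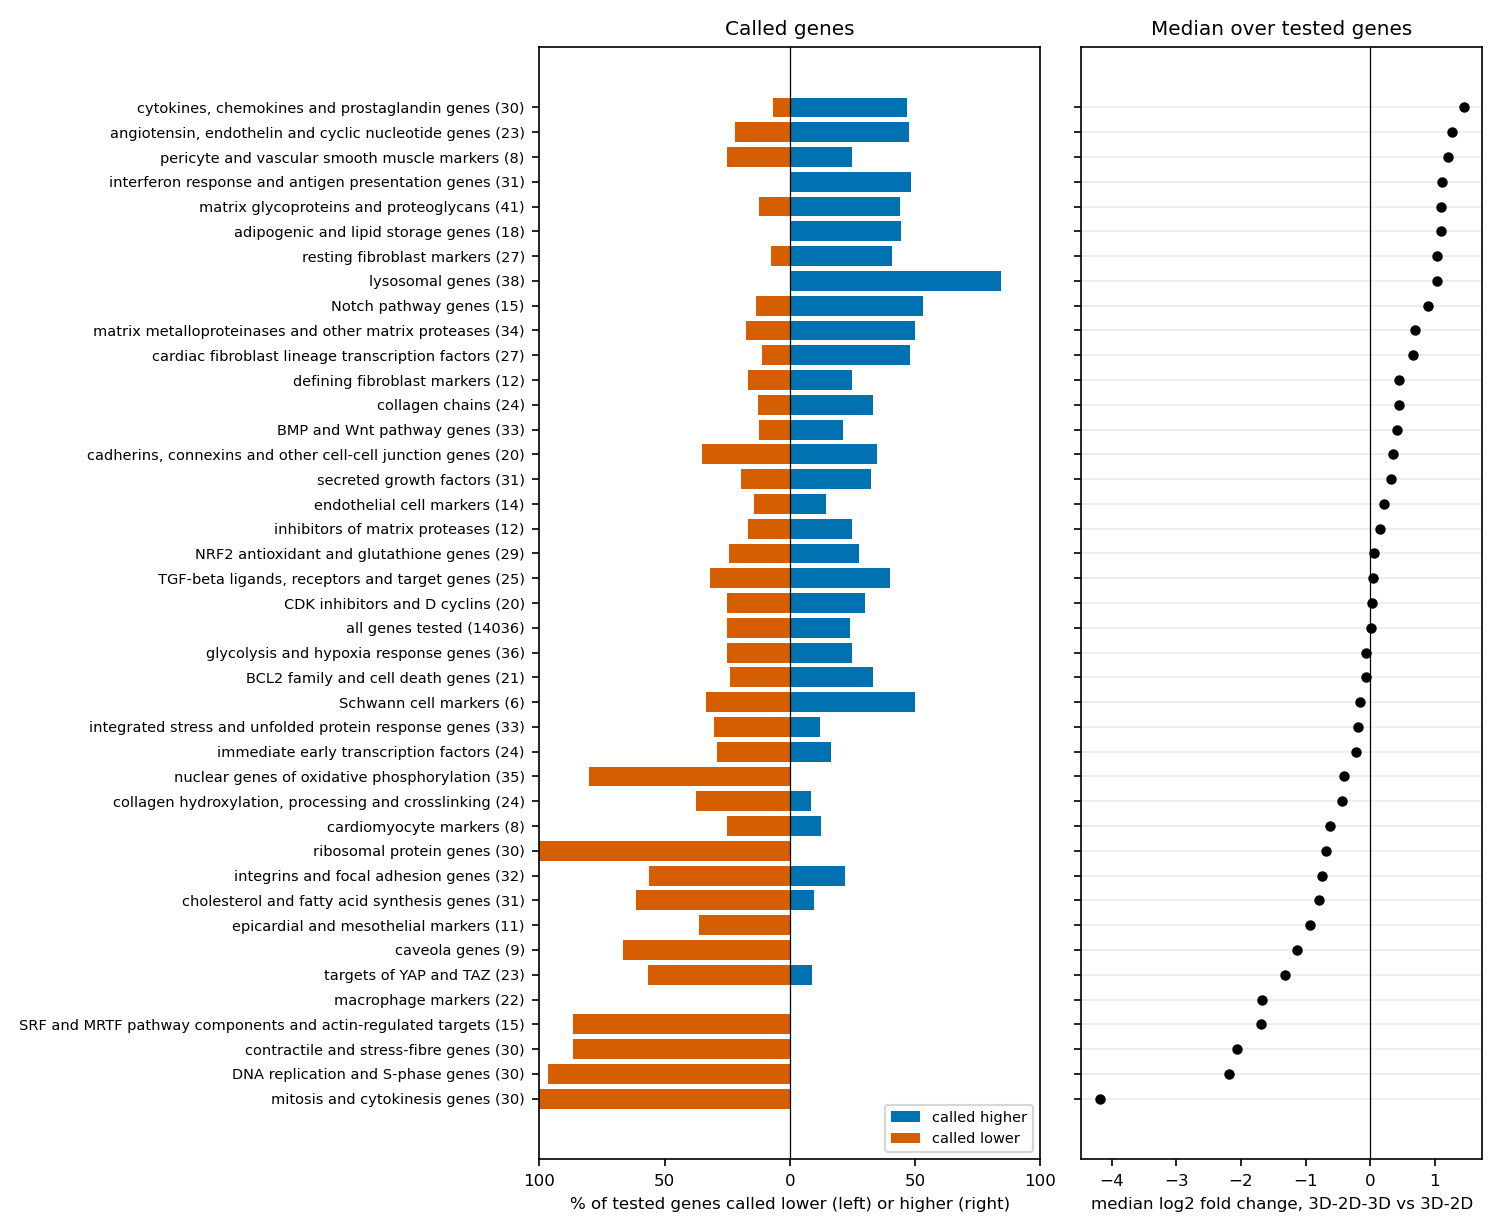
Left, percent of each list's tested genes called higher or lower in 3D-2D-3D than in 3D-2D; right, the median log2 fold change of the list. Mitosis, ribosomal, replication and contractile genes have no called rise and lysosomal genes no called fall, against 24.2% higher and 25.0% lower over all genes.

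Genes of growth and biosynthesis fell with the cell cycle genes. All 30 ribosomal protein genes fell, with a median of -0.69. Rpl18 went from 466 and 464 CPM to 235, 229 and 220.3 CPM (-1.03 ± 0.12). Of 35 nuclear genes of oxidative phosphorylation, 28 fell and none rose, by a median of -0.40, with the carrier cytochrome c, Cycs, at -1.18 ± 0.13. With library totals 29 ribosomal and 23 oxidative genes were called lower. Psat1, in serine synthesis, fell from 136 and 146 CPM to 9.24, 10.0 and 8.93 CPM (-3.91 ± 0.20), and Phgdh of the same pathway changed by -1.80 ± 0.34. Both belong to a list of 33 genes of the integrated stress and unfolded protein responses in which 10 fell and 4 rose, among them the mTOR inhibitor Ddit4 (3.23 ± 0.53).

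In cholesterol and fatty acid synthesis 19 of 31 genes fell and 3 rose (median -0.79). Idi1, an isoprenoid enzyme, went from 44.4 and 58.6 CPM to 11.0, 13.3 and 4.29 CPM (-2.44 ± 0.44, adjusted p = 8.73e-05). The 3 that rose were Insig1, Scd1 and Scd2. Scd1, which desaturates fatty acids, went from 129.5 and 144 CPM to 579.8, 564 and 585 CPM (2.08 ± 0.20), with no overlap between groups.

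Lysosomal genes rose in 32 of 38 tested, and none fell (median 1.03). Scarb2, a lysosomal membrane protein that carries glucocerebrosidase, was at 147 and 145 CPM in 3D-2D and at 677, 681 and 631 CPM in 3D-2D-3D (2.18 ± 0.25, adjusted p = 3.91e-07). Gla, α-galactosidase A, changed by 2.35 ± 0.28. Ctsk, the collagen-degrading cathepsin K, and Naglu, an enzyme of heparan sulfate breakdown, changed by 1.77 ± 0.20 and 1.75 ± 0.24. The summed level of the list was 10498 to 11227 CPM in 3D-2D and 20839.5 to 21710.5 CPM in 3D-2D-3D. Macrophages are rich in lysosomes too, so their markers are given beside this count. The 22 macrophage genes summed to 862 to 1179 CPM in 3D-2D and 316 to 346 CPM in 3D-2D-3D, none of them was at 0 in any of the 5 libraries, and none of the 22 was called in either direction (median -1.67). That count depends on the fit: 17 of 21 were called lower with only the groups compared, 19 of 21 with the replicate block and 2 of 22 with libraries 1 and 2 alone, and none was called higher. Their part in the lysosomal values was not tested. Among them Lyz2 had 416 and 319 CPM and then 104, 105 and 113 CPM.

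The Gla promoter is printed because lysosomal genes are known for the CLEAR element bound by TFEB, whose core is CACGTG. Its window (chrX:134601006-134601255, - strand) has matches at 227 to 222 and at 194 to 189 bases before the start.
Gla: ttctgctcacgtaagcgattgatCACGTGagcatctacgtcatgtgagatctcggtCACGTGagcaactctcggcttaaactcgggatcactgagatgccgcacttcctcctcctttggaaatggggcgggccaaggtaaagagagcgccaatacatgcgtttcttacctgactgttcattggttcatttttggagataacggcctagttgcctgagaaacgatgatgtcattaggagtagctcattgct
CACGTG was in 11 of the 29 lysosomal genes with a promoter entry (37.9%), against 6.86% of all genes and 6.02% of all windows. This share describes the list and not the response, and many factors beside TFEB bind this sequence.

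**Figure D3:**
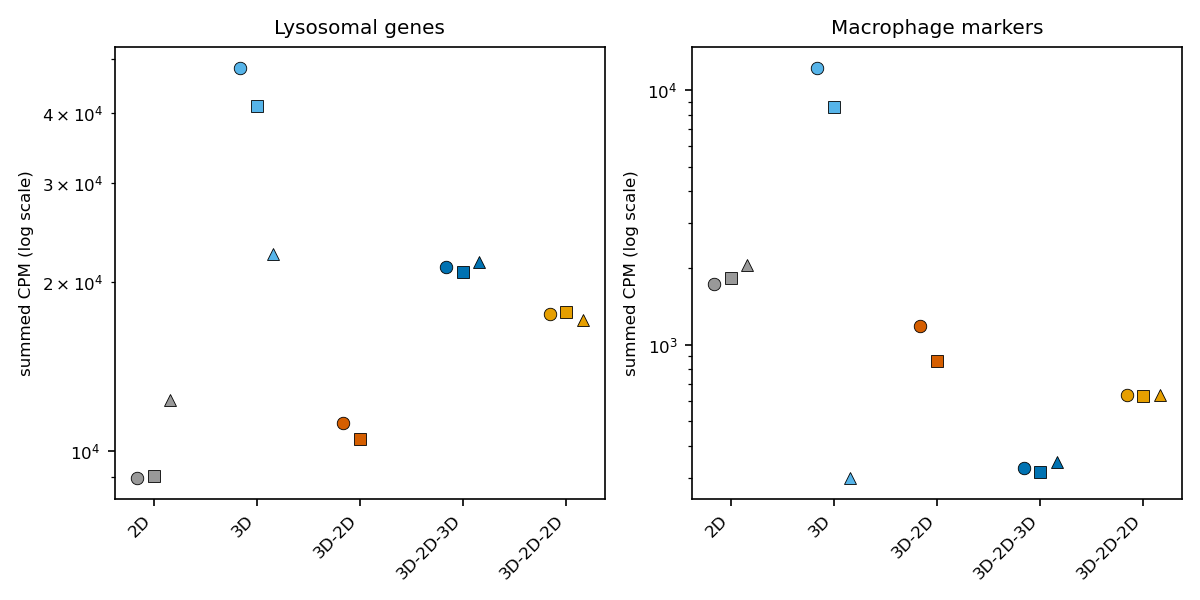
Summed CPM (log axes) of 38 lysosomal genes and 22 macrophage markers in each library of 5 groups; circle, square and triangle are libraries 1, 2 and 3. The lysosomal sum is higher in 3D-2D-3D than in 3D-2D while the macrophage sum is lower, and libraries 1 and 2 of 3D hold far more macrophage RNA than its library 3.

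Markers of the resting cardiac fibroblast rose in part: 11 of 27 tested rose and 2 fell, with a median of 1.04. Cygb, cytoglobin of quiescent fibroblasts, went from 31.2 and 38.5 CPM to 448, 445 and 308 CPM (3.52 ± 0.44, adjusted p = 1.22e-06). Abca8a, a transporter of resident fibroblasts, changed by 3.07 ± 0.35. Tcf21, the lineage factor of epicardium-derived fibroblasts, had 18.5 and 23.0 CPM before and 47.9, 46.4 and 65.9 CPM after (1.37 ± 0.37), and lost its call without library 1 of 3D-2D (1.20). The matrix gene Dpt was called at 2.92 ± 0.75 and also depended on that library (2.48 without it). Pdgfra (0.06 ± 0.22) and Thy1 (-0.14 ± 0.52), both surface markers of fibroblasts, were not called. Of the general mesenchymal markers, Vim changed by -0.96 ± 0.25 and S100a4 by -2.0 ± 0.38. Among 27 cardiac and mesenchymal transcription factors 13 rose and 3 fell (median 0.67), with Mef2c at 2.77 ± 0.48, Tbx5 at 2.54 ± 0.26, Sox9 at 1.97 ± 0.34 and, in the other direction, Osr1 at -2.09 ± 0.58 (-2.93 without library 3 of 3D-2D-3D).

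Signalling genes were among the largest rises. Bmp2, a BMP ligand (chr2:133552159-133562896), went from 1.29 and 1.0 CPM to 24.4, 23.7 and 61.0 CPM (4.97 ± 0.76, adjusted p = 1.45e-05). Library 3 was the highest, and without it the change was 4.35. In the BMP and Wnt list of 33 genes, 7 rose and 4 fell, among the rises the Wnt receptor Fzd1 (3.49 ± 0.38) and the secreted Dkk3 (3.03 ± 0.41). In the TGF-β list of 25 genes 10 rose and 8 fell, with a median of 0.04. Inhba, the activin A subunit, was not called, with 418 and 578 CPM in 3D-2D and 392, 395 and 370.0 CPM in 3D-2D-3D (-0.37 ± 0.44, adjusted p = 0.512).

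Notch pathway genes rose in 8 of 15 tested and fell in 2. Heyl, a transcriptional repressor downstream of Notch, rose from 1.17 and 1.15 CPM to 103, 96.2 and 51.4 CPM (6.16 ± 0.78, adjusted p = 1.53e-06). Hey2, of the same family, changed in the other direction (-4.63 ± 0.63). Of 23 genes of vasoactive signalling, 11 rose and 5 fell (median 1.26). The endothelin pair moved in opposite directions. Edn1, the ligand endothelin 1, fell from 23.6 and 30.4 CPM to 0.409, 0.681 and 0.516 CPM (-5.66 ± 0.49), while its receptor Ednra rose from 0.835 and 0.251 CPM to 39.2, 40.9 and 36.0 CPM (6.09 ± 0.65, and 7.21 without library 1 of 3D-2D). Ace, angiotensin-converting enzyme, rose from 43.4 and 30.8 CPM to 601, 589 and 2072 CPM (4.87 ± 1.08). Its highest value was in library 3, and the change was 3.98 without that library. Growth factors moved both ways, 10 up and 6 down of 31, with Hgf (3.63 ± 0.62) and Fgf1 (3.06 ± 0.63, 2.29 without library 3 of 3D-2D-3D) higher and Bdnf (-2.75 ± 0.19) and Csf1 (-2.62 ± 0.28), the macrophage growth factor, lower.

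Inflammatory genes rose in 14 of 30 tested and fell in 2 (median 1.45), but the re-entered libraries did not move together. Ccl2, a monocyte chemokine, was at 23.6 and 21.5 CPM in 3D-2D and 157, 158 and 14.8 CPM in 3D-2D-3D, where library 3 fell below both 3D-2D libraries. Its change of 2.29 ± 0.86 was called with all libraries and lost without library 1 (2.33) or 2 (2.22) of 3D-2D, and without library 1 (1.91) or 2 (1.91) of 3D-2D-3D. Il6 had the same layout, with 6.85 and 8.28 CPM and 31.9, 35.1 and 4.48 CPM, and was not called (1.65 ± 0.94). With libraries 1 and 2 alone, 20 inflammatory genes rose and 2 fell; with libraries 1 and 2 of each group summed, which leaves 3D-2D 1 library whose spread is taken from the other groups, 6 rose and none fell. Il33, an alarmin (3.73 ± 0.76), and the chemokine Ccl8 (3.40 ± 0.76) were among the rises. Ptgs2, the prostaglandin synthase COX-2, was lower in all 3 re-entered libraries, with 756 and 1305 CPM before and 317, 324 and 145 CPM after (-1.98 ± 0.65). Its call was lost without library 2 of 3D-2D (-1.53) or library 3 of 3D-2D-3D (-1.71).

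The largest rises also held genes outside these lists. Strip2, a gene of the striatin complexes, went from 0.418 and 0.753 CPM to 48.8, 50.8 and 32.0 CPM (6.23 ± 0.45). Gem, a small GTPase that inhibits calcium channels, changed by 5.59 ± 0.22. Olr1, the receptor for oxidised LDL, rose from 9.48 and 12.4 CPM to 289.9, 294 and 386 CPM (4.88 ± 0.77). Igfbp5, an IGF-binding protein, rose from 34.4 and 67.2 CPM to 1154, 1184 and 930.2 CPM (4.42 ± 0.52). The corepressor Hr (4.82 ± 0.35), the cationic amino acid transporter Slc7a2 (4.68 ± 0.64) and the kinase Mapk4 (4.53 ± 0.76, 5.15 without library 1 of 3D-2D) completed that end of the ranking together with Nptx1, a pentraxin (5.82 ± 1.56). Nptx1 lost its call without library 2 of 3D-2D (5.65), and its change was 4.48 without library 3 of 3D-2D-3D. At the other end the cytoskeletal genes Fgd3, a Cdc42 exchange factor, and Aif1l, an actin-binding protein, changed by -6.17 ± 0.50 and -5.33 ± 0.53.

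The state reached was then set beside the 3D group, whose cells had seen no 2D step. This comparison shares the 3D-2D-3D libraries with re-entry, so its values are given side by side and not as separate support. It called 3227 genes, 23.0% of those tested, with 11.2% higher and 11.8% lower in 3D-2D-3D. Contractile genes were divided, 9 higher and 9 lower of 30 (median -0.19). Acta2, at 50.4, 60.5 and 49.5 CPM in 3D, was lower in all 3 re-entered libraries (-1.52 ± 0.40, adjusted p = 0.00853). The mitosis genes were lower in 16 of 30, with a median of -1.32. Their summed level was 257, 208 and 69.7 CPM in libraries 1, 2 and 3 of 3D and 64.8 to 86.3 CPM in 3D-2D-3D, so that library 3 of 3D lay within the re-entered range and the other 2 above it. Inhba was at 10.9, 13.6 and 43.1 CPM in 3D, far below its level after re-entry (4.09 ± 0.46, adjusted p = 3.47e-06). Itgb3, Timp1 and Bmp2 were higher than in 3D as well (2.93 ± 0.44, 2.44 ± 0.42 and 3.70 ± 0.59). So were Hmga2, a chromatin protein (4.29 ± 1.03), the semaphorin Sema7a (3.48 ± 0.66) and Gdnf, a neurotrophic factor (3.55 ± 0.42), while Igf1 was lower (-4.05 ± 0.57).

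Macrophage markers differed between these groups. The 22 macrophage markers summed to 12238, 8533 and 299 CPM in the 3 libraries of 3D against 316 to 346 CPM in 3D-2D-3D, and 20 of them were called lower in 3D-2D-3D. Lysosomal genes were called lower in 11 of 38 and higher in none. Igf1 is also made by macrophages, and its level in 3D was 511, 376 and 111 CPM. How far the macrophage RNA of the 3D libraries enters these values was not tested. Leaving out library 1 of 3D gave 1991 calls, library 2 gave 2064 and library 3 gave 4100. Library 3 has few macrophage reads and also holds Y-linked reads (2498). Its macrophage content and the source of its cells cannot be told apart.

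The comparison of 3D with 2D has no library in common with re-entry and sets 3D against 2D in cells without an earlier arrangement. It called 7576 genes (54.0%), with 26.7% higher and 27.3% lower in 3D. The log2 changes of both comparisons had a Pearson r of 0.71 over the 14036 genes, and genes are no independent replicates. The median absolute change was 0.55 at re-entry and 0.54 in 3D against 2D. Of the genes that rose at re-entry, 67.3% also rose in 3D against 2D, and these 2287 genes were 61.1% of the rises there. For falls the 2650 shared genes were 75.6% and 69.2%. Calls in opposite directions were 79 among the re-entry rises and 26 among the falls. A test of the difference between both changes called 1063 genes, 7.57% of those tested, with 720 above (5.13%) and 343 below (2.44%).

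**Figure D4:**
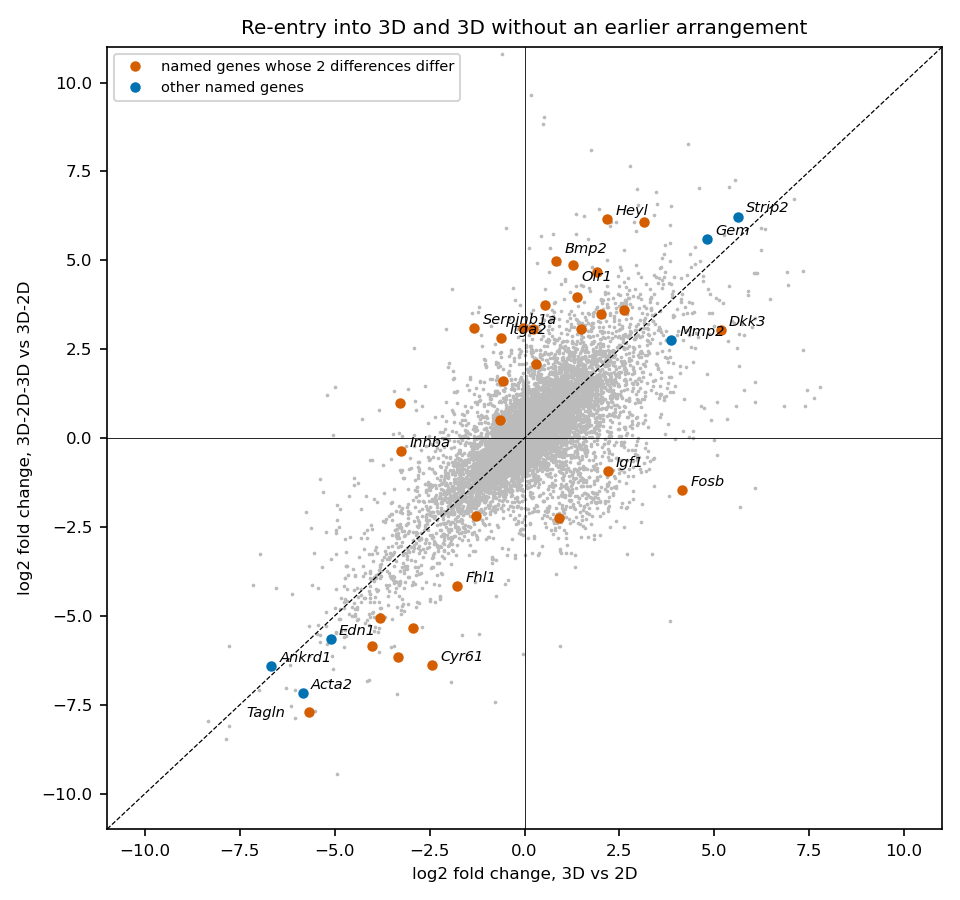
Each point is 1 gene, with its log2 fold change in 3D against 2D on the horizontal axis and in 3D-2D-3D against 3D-2D on the vertical axis; the dashed line marks equal change. Most points follow the line (Pearson r 0.71), and the orange named genes, such as Cyr61 below it and Bmp2 above it, are those whose difference between both changes was called.

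Some mechanical genes fell further at re-entry than in 3D against 2D, but most did not differ by the test. Of 30 contractile genes 5 differences were called lower and 2 higher, and of 23 YAP targets 4 were lower and none higher, with a median of 0.11. The starting levels were not equal. YAP targets summed to 15068 to 18973 CPM in 3D-2D and to 9528 to 12714 CPM in 2D. They reached 3020 to 3200 CPM in 3D-2D-3D and 2513 to 2835 CPM in 3D, so their sum was not lower after re-entry than in 3D. Cyr61 differed by -3.95 ± 0.80 (adjusted p = 0.00422), Fhl1 by -2.40 ± 0.42 (adjusted p = 0.00147) and Tagln by -2.03 ± 0.47 (adjusted p = 0.0097). The 3D libraries of Cyr61 did not lie together, at 383, 355 and 22.0 CPM. Library 3 of 3D was within the range of the re-entered libraries. That library has few macrophage reads and is also the only 3D library with more than 1 Y-linked read, and these traits cannot be told apart. Genes whose change was higher at re-entry included Bmp2 (4.13 ± 0.91, adjusted p = 0.00751), Heyl (3.99 ± 0.87, adjusted p = 0.00694), Itga2 (3.43 ± 0.72, adjusted p = 0.00524) and Scd1 (1.78 ± 0.26, adjusted p = 0.00026). Scd1 changed by 0.30 ± 0.17 in 3D against 2D. With only the groups compared, the differences of Cyr61, Heyl and Bmp2 were not called (adjusted p = 0.0764, 0.0909 and 0.0936), and with the replicate block those of Cyr61 and Heyl were not (0.165 and 0.0959). Several calls also rested on single libraries: Tagln lost it without library 2 of 3D-2D (-1.66), Itga2 without library 1 of 3D-2D (3.14), Heyl without either 3D-2D library (4.0 and 3.99), and Bmp2 without library 1 (4.31) or 2 (3.97) of 3D-2D or library 3 of 2D (2.21). The count of 1063 lay between 360 and 2144 over the fits without 1 library; it was 374 without library 1 and 360 without library 2 of 3D-2D, and 2144 without library 3 of 3D. The cell cycle lists changed by like amounts in both, with mitosis medians of -4.19 and -4.05 and replication medians of -2.19 and -2.22.

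The 3D-2D-2D group had a further 2D step in place of the return to 3D. The 3D-2D-2D libraries differed from 3D-2D in 6526 genes (46.5%, with 22.9% higher and 23.6% lower), so nearly as many genes were called without a return to 3D. The 3D-2D-3D libraries differed from 3D-2D-2D in 5677 (40.4%, with 19.8% higher and 20.6% lower). Both splits depended on the scaling. With library totals, 3D-2D-2D against 3D-2D had 2518 higher and 4223 lower, with a median over all genes of -0.16. For 3D-2D-3D against 3D-2D-2D it was 4747 higher and 1893 lower, with a median of 0.22. The shares that follow are with trimmed mean scaling. Of the genes that rose at re-entry, 43.6% were also called higher in 3D-2D-3D than in 3D-2D-2D. Of those that fell at re-entry, 39.3% were also called lower in 3D-2D-3D than in 3D-2D-2D. Both comparisons share libraries with re-entry. The 3D-2D-2D libraries all held Xist and Y-linked reads and both 3D-2D libraries did not, so the source of the cells and the further step in 2D cannot be told apart. Contractile genes were lower in 25 of 30 after continued 2D, with a median of -0.89 against -2.07 at re-entry. Mitosis genes had a median of -1.67 against -4.19. Replication genes lay nearer, with 28 of 30 lower after continued 2D and a median of -1.89 against -2.19. In 3D-2D-3D against 3D-2D-2D, 29 of 30 mitosis genes were lower (median -2.53). Of 30 replication genes 12 were lower and 1 higher there (median -0.60). Of 23 YAP targets 9 were lower and 3 higher after continued 2D (median -0.46). Among those not called, Cyr61, at 1718, 1709.6 and 1681 CPM in 3D-2D-2D, and Amotl2, at 590.3, 578 and 571 CPM, had levels near those of 3D-2D (-0.35 ± 0.58 for Cyr61).

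Against 3D-2D, the cholesterol list and the genes Cemip and Spp1 moved in opposite directions in 3D-2D-3D and in 3D-2D-2D. Collagen chains and resting-fibroblast markers rose more often than they fell in both, with higher medians in 3D-2D-2D. The limit on the source of the 3D-2D-2D cells holds for each of these values. Cholesterol and fatty acid genes were higher in 29 of 31 after continued 2D (median 1.67), and 29 of 31 were lower in 3D-2D-3D than in 3D-2D-2D (median -2.81). Cemip rose with continued 2D (2.75 ± 0.33) and fell at re-entry, with -8.05 ± 0.36 for 3D-2D-3D against 3D-2D-2D. Spp1 did the reverse, falling with continued 2D (-2.67 ± 0.86). Collagen chains rose in 17 of 24 with continued 2D (median 1.42), with Col1a1 at 1.64 ± 0.39 and Col3a1 at 3.96 ± 0.82, and 13 of 24 were lower in 3D-2D-3D than in 3D-2D-2D. Resting-fibroblast markers rose in 20 of 27 with continued 2D (median 2.84), among them Tcf21 (3.29 ± 0.40), and 15 of 27 were lower in 3D-2D-3D than in 3D-2D-2D. Ptgs2 was below 3D-2D in both groups, at 4.80, 4.41 and 6.09 CPM in 3D-2D-2D. Lysosomal genes rose in both comparisons with 3D-2D, in 25 of 38 with continued 2D and in 32 of 38 at re-entry.

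**Figure D5:**
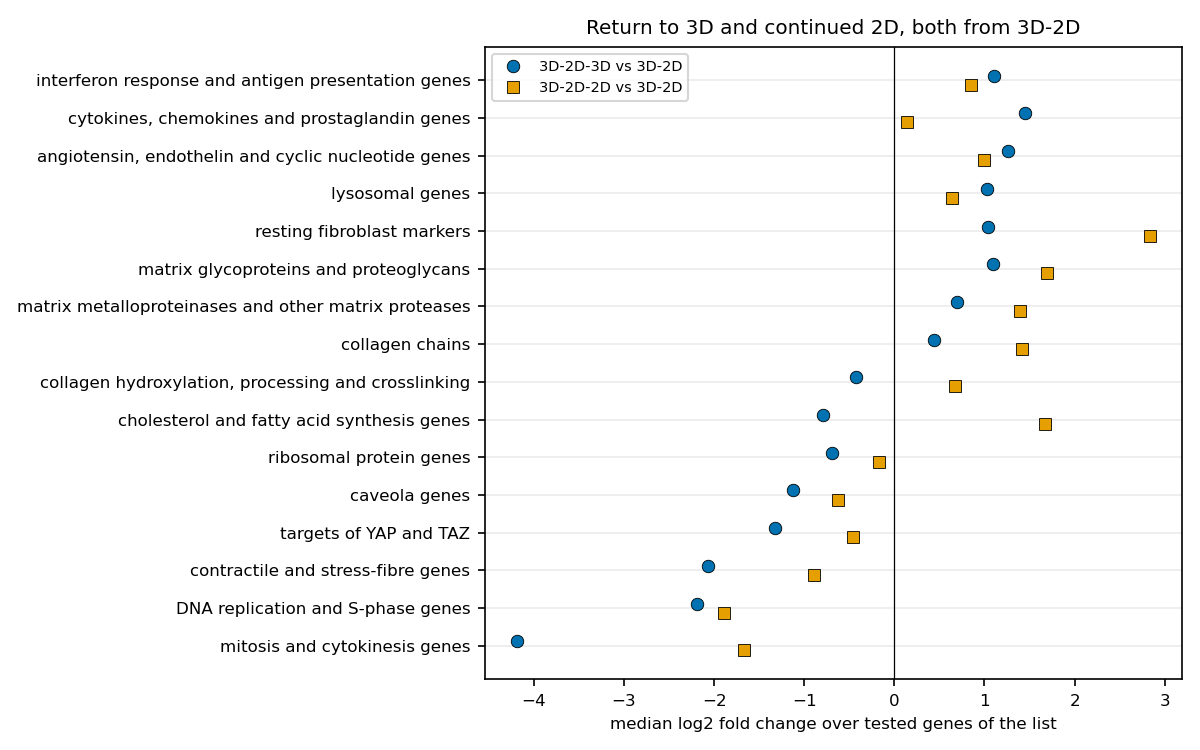
Median log2 fold change over the tested genes of each list, for 3D-2D-3D against 3D-2D and for 3D-2D-2D against 3D-2D, which share the 3D-2D libraries. Cholesterol genes (-0.79 at re-entry and 1.67 after continued 2D) and genes of collagen processing (-0.43 and 0.67) differ in sign. The other lists shown have the same sign in both.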

How the data were processed

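Total RNA of cardiac fibroblasts was sequenced from standard Illumina libraries, per the labels' protocols; the sources used here do not say whether counting used strand. For all 29 RNA libraries the deposited values are whole-number read counts by gene symbol, in 1 table by the authors, and the submitters' processing notes name TopHat, HTSeq, Bowtie, MACS2 and the mm10 genome without versions or roles. The table holds 24421 gene lines and 5 HTSeq summary lines, which were left out of library sizes: in the 5 libraries compared, reads not aligned uniquely came to 17.75 to 21.31% and reads in no feature to 6.79 to 7.98% of the library. Near-identical gene copies lose reads that align more than once. In 27 symbols a spreadsheet had turned the name into a date. Both samples of genomic DNA were not analysed here.

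edgeR 4.0.16 (R 4.3.3) was run on the counts of all 29 libraries with 1 mean per group, its filter on low counts (14036 genes left), trimmed mean scaling and robust quasi-likelihood dispersion. A gene was called at a Benjamini-Hochberg adjusted p under 0.05 over all genes tested. Standard errors are the size of the log2 change over the square root of F. CPM are on scaled totals. Named genes were the 12 largest called changes each way whose mean log2 CPM reached 3 and whose groups did not overlap, at most 4 called genes from each of 42 gene lists, a panel of 21 fibroblast genes, and the 6 largest each way of the other comparisons; list members named outside these were chosen after their values were seen, and some genes the rule names are not reported here. The members and lists were chosen with earlier results of these data known, and the comparison of 3D-2D-3D with 3D-2D-2D was added after seeing the data. In simulated counts for 13650 genes, 100 genes were changed by 1 log2 unit and 100 by 2. The changed genes were drawn from those with higher counts, all other genes were equal between groups, and libraries were drawn independently. There the re-entry fit recovered 64% of changes of 1 log2 unit and 93% of changes of 2, with 7 false calls among 164. In the data far more genes were called, so these rates need not hold for it. Replicate numbers do not mark a shared source in the labels. Promoters are RefSeq's, build GRCm38.p6. Of the symbols, 24286 matched a RefSeq symbol or synonym. Alternatives tried were other scalings and filters, DESeq2 1.42.0, a fit of only the groups compared, a replicate block, leaving out each library, libraries 1 and 2 of each group summed, and libraries 1 and 2 alone.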

Additional observations from a re-analysis of the deposited data

Results flagged for a closer look

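For 31 of the genes followed here, the change on re-entry differed from the change of 3D against 2D by the test of that difference (edgeR, adjusted p under 0.05 over all genes). Values below are the difference on the log2 scale, re-entry minus 3D against 2D. Of 30 contractile genes 5 had a called negative difference and 2 a positive one, of 15 SRF pathway genes 2 and none, and of 23 YAP targets 4 and none. Those followed here were negative: Tagln -2.03, Srf -0.91, Fhl1 -2.40, Cyr61 -3.95 and Amotl2 -1.24. Differences were also negative for the cytoskeletal genes Fgd3 (-2.84) and Aif1l (-2.38), for Npnt (-1.83), and for Dkk3 (-2.14), which rose in both comparisons, by 3.03 at re-entry and by 5.17 in 3D against 2D.

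The differences were positive for the adhesion genes Itga2 (3.43) and Itgb8 (3.15), for Fn1 (1.15), the protease Adamts4 (2.60), Gadd45a (0.99) and Scd1 (1.78). The same held for the signalling genes Heyl (3.99), Bmp2 (4.13), Ednra (2.95), Fgf1 (2.86), Fzd1 (1.47), Il33 (3.20) and Gdnf (2.18), for the receptors Olr1 (3.61) and Lgr6 (4.27), the transporters Slc7a2 (2.76) and Abca8a (1.60), and the protease inhibitor Serpinb1a (4.43). Inhba differed by 2.89, with -0.37 at re-entry and -3.26 in 3D against 2D.

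The immediate early genes Fosb (-5.63) and Dusp1 (-3.17) and the growth factor Igf1 (-3.13) gave the remaining negative differences. Fosb changed by -1.47 at re-entry and by 4.16 in 3D against 2D, Dusp1 by -2.25 and 0.92, and Igf1 by -0.94 and 2.19. The 3D libraries were split for immediate early genes. The 24 genes of that list summed to 5243, 5674 and 1399 CPM in libraries 1, 2 and 3 of 3D. In 2D they summed to 2191 to 2739 CPM, above library 3 of 3D, which also differs in its Y-linked reads. The macrophage markers summed to 12238, 8533 and 299 CPM in libraries 1, 2 and 3 of 3D, and the part of that RNA in these differences was not tested. How many of the 31 calls held under other settings is given with the processing.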

How the results depend on the processing

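For re-entry the count of called genes was 6902, and it was 6902 with relative log expression factors, 6776 with library totals, 6639 with no filter, 6819 with a 1 CPM filter and 7167 with DESeq2. It lay between 5081 and 6296 over the fits that left out 1 library, at 7023 with libraries 1 and 2 alone, and at 4522 with libraries 1 and 2 of each group summed, where 3D-2D keeps 1 library that is assumed to vary like the other groups (as it is without either of its libraries). With that summing, the list counts that dropped by 6 or more were 15 to 6 rises for interferon genes, 14 to 6 for inflammatory genes, 18 to 12 for matrix glycoproteins, 28 to 16 falls for oxidative phosphorylation and 19 to 13 for cholesterol genes; of smaller drops, collagen rises went from 8 to 4 and cell death falls from 5 to 1. The labels do not tie a replicate number to a shared source, and the check of pairing could not decide it, since the deviations of the 2 3D-2D libraries are exact opposites (correlation -0.127 and 0.0876 for numbers 1 and 2); with the replicate block the count was 9429, against 8375 for the same libraries without it, and Sema3d went from 0.11 to -0.70.

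For 3D-2D-3D against 3D the 3227 calls became 1485 with only the groups compared, 1587 with the replicate block and 936 with libraries summed, and 1991 to 4100 without 1 library. The 1063 differences between re-entry and 3D against 2D became 670 with only the groups compared, 43 summed, 2234 with libraries 1 and 2 alone and 1629 with DESeq2, and 360 to 2144 without 1 library; the cause was not tested. Of the 31 genes with a called difference, 31 kept it with DESeq2, 15 with only the groups compared, 18 with the replicate block, 30 with libraries 1 and 2 alone, 12 to 30 without 1 library and 2 (Scd1 and Serpinb1a) with libraries summed. Among 211 named genes at re-entry, 31 lost or missed the call without library 1 of 3D-2D, 25 without library 2, 37 with libraries summed and 12 with no filter.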

Other observations

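Interferon-response genes were higher on re-entry in 15 of 31 tested, and none was lower (median 1.11), although most were low in level. Oasl1, an interferon-induced gene, stood at 0.501 and 0.753 CPM in 3D-2D and at 4.77, 5.67 and 6.35 CPM in 3D-2D-3D (3.15 ± 0.76, edgeR adjusted p = 0.00151). With libraries 1 and 2 alone 11 of the 31 were called higher. Genes of fat storage and adipocyte differentiation were higher in 8 of 18 and lower in none (median 1.10). Klf15, a metabolic transcription factor, went from 0.627 and 0.853 CPM to 8.39, 7.63 and 7.10 CPM (3.38 ± 0.63). Cebpa, a factor of adipocyte differentiation, went from 17.4 and 10.6 CPM to 57.6, 57.5 and 61.6 CPM (2.07 ± 0.38). The lipid droplet gene Plin4 changed by 3.97 ± 0.59 (4.59 without library 1 of 3D-2D).

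Of 24 immediate early and stress transcription genes 7 fell and 4 rose. Myc, a driver of growth and ribosome production, was at 120.4 and 144 CPM before and 22.0, 23.6 and 10.1 CPM after (-2.83 ± 0.54), with library 3 the lowest. The metallothionein Mt1, a metal-binding protein, rose from 63.0 and 52.8 CPM to 372, 357 and 263 CPM (2.51 ± 0.46), and Gclc, the first enzyme of glutathione synthesis, from 102 and 93.4 CPM to 376, 383 and 284 CPM (1.83 ± 0.32). The antioxidant list they belong to had 8 rises and 7 falls of 29. In the hypoxia and glycolysis list, 9 rose and 9 fell of 36; Adm, the vasodilator peptide adrenomedullin, fell from 131 and 109 CPM to 8.87, 9.71 and 9.26 CPM (-3.69 ± 0.25), while Eno2, an enolase, rose (3.02 ± 0.30).

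The receptors Flt1 and Tek, best known from endothelium, were higher after re-entry, at 14.7 and 10.1 CPM and then 113, 117 and 186 CPM for Flt1 (3.48 ± 0.71) and 4.05 and 3.91 CPM and then 22.0, 21.6 and 14.2 CPM for Tek (2.27 ± 0.38). They were the 2 rises among 14 endothelial markers, of which 2 fell. Over all 5 libraries Kdr was at most 0.627 CPM, Tie1 at most 0.552 CPM, Cldn5 at most 0.272 CPM and Pecam1 at most 1.13 CPM. Others were above that level: Cdh5 was at 1.91 to 3.43 CPM in 3D-2D and 5.32 to 7.91 CPM in 3D-2D-3D (not called), Vwf at 4.47 to 6.85 and 3.13 to 4.81 CPM, and Eng, which fibroblasts also express, at 439 to 456 and 273 to 386 CPM. The part of endothelial RNA in the rises of Flt1 and Tek was not tested. In the cadherin Cdh13 library 3 of 3D-2D-3D stood alone, with 13.4, 12.9 and 168 CPM against 8.23 and 4.72 CPM in 3D-2D, and its change of 3.32 ± 1.25 was 1.0 and not called without that library.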
